A study of Rattus norvegicus with 10 samples.

Results

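A set of 10 genes that natural killer cells use to recognise and kill other cells were followed array by array in rat liver: the lectin-like receptor genes Klrd1, Klrc2, Klrc3 and Klrk1, the receptor gene Ncr1, the cytokine receptor gene Il2rb, and the granule genes Prf1, Gzma, Gzmk and Nkg7. Their probes were those whose transcript accession belongs to these 10 genes, which gave 11 probes out of 41012 on the array (10 of the 13837 genes with a named probe), with 2 probes for Klrc3 and 1 for each other gene. Livers came from male Sprague Dawley rats, with 1 array per rat. The 3 control rats received the solvent propylene glycol. The 4 SM rats received sulfur mustard (SM), a vesicant that alkylates DNA, in 1 subcutaneous injection of 3.5 mg/kg, which is 0.7 of the LD50. The 3 SM + MSTF rats received that injection and, 1 h later, 120 mg/kg of MSTF into the stomach. MSTF combines salvianolic acids of the sage Salvia miltiorrhiza with total flavonoids of the plant Anemarrhena asphodeloides and was given in water. All livers were taken 24 h after SM or solvent, and the age of the rats was not given in the sources used here. Nor did these sources say whether control and SM rats received water into the stomach.

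Natural killer cells are lymphocytes that are common in liver sinusoids, where they survey hepatocytes and other cells without prior priming. The Klrd1 product, CD94, pairs with NKG2 chains such as those of Klrc2 and Klrc3 to read MHC class I-like molecules, and the Klrk1 product, NKG2D, reads ligands that stressed cells display. On contact the cell releases perforin (Prf1), which opens the target membrane, and granzymes (Gzma, Gzmk), which are proteases that enter through it. Nkg7 codes for a granule membrane protein, Il2rb for the receptor chain shared by interleukin 2 and interleukin 15, and Ncr1 for NKp46. Several of these genes are also active in T cells, so their signals in whole liver are not those of a single cell type.

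In the RefSeq annotation of GRCr8, Klrd1, Klrk1, Klrc3 and Klrc2 lie next to each other on chromosome 4, with 0 listed genes between each neighbouring pair, and Gzma and Gzmk are neighbours on chromosome 2. Promoter sequence from RefSeq (GRCr8, 250 bases before to 50 bases after the start site) was matched for 7 of the 10 genes, namely Klrc2, Klrc3, Klrk1, Nkg7, Gzma, Gzmk and Prf1. The promoters of the 3 matched lectin-like receptor genes are shown because these genes are neighbours and 1 of them, Klrc2, was called below. They lie at chr4:164819816-164820115 (Klrc2), chr4:164798709-164799008 (Klrc3) and chr4:164778333-164778632 (Klrk1), all on the minus strand. Capitals mark letters of a T-box core (TCACAC), a Runx core (TGTGGT), an Ets core (CAGGAA) or a Stat5 site (TTCNNNGAA), searched on both strands.
Klrc2: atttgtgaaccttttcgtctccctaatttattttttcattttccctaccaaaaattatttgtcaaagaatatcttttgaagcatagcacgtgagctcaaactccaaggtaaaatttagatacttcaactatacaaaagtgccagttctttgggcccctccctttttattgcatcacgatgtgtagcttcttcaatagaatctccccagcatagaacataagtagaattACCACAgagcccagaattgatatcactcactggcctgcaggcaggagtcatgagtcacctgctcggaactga
Klrc3: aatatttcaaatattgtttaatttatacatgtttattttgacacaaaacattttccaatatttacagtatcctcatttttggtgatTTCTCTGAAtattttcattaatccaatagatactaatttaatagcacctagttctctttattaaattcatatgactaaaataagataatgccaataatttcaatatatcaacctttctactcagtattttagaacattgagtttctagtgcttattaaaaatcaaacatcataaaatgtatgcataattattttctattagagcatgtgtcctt
Klrk1: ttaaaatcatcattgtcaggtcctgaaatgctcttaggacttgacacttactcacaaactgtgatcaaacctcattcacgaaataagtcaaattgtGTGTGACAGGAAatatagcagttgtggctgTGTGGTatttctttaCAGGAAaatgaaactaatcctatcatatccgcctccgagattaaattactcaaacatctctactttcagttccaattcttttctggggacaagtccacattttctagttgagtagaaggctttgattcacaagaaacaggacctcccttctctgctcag
The Klrc2 promoter held 1 Runx core starting 22 bases before the start site, and the Klrc3 promoter held 1 Stat5 site starting 164 bases before it. The Klrk1 promoter held a T-box core at 154 bases, Ets cores at 148 and 109 bases and a Runx core at 124 bases before the start site, and the first Ets core directly followed the T-box core without overlap. GC content was 39.7% for Klrc2, 23.3% for Klrc3 and 38.7% for Klrk1, against a median of 51.7% over 33469 rat promoters. Over the 7 promoters, Runx letters were found in 6, Ets letters in 4, T-box letters in 3 and Stat5 letters in 2. The corresponding shares of all promoters were 17.3%, 29.1%, 13.7% and 8.87%. In the Nkg7 promoter the Stat5 and an Ets match overlapped. These matches are a description of letters, and binding was not measured.

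All values are log2 of the quantile-normalised, background-subtracted intensity, and a fold change is a difference of mean log2 signals. Tests took in the 22991 probes that the scanner software marked as well above background throughout 1 or more groups. A gene was called changed at a Benjamini-Hochberg adjusted p under 0.05 and at least 1.5-fold in limma. Within groups, arrays correlated at r = 0.977 to 0.991 over the probes, and 51.9% to 61.4% of probes per array were well above background. The 3 controls and SM + MSTF replicate 3 shared 1 slide, the 4 SM arrays filled another, and SM + MSTF replicates 1 and 2 were on the third, so SM and its slide cannot be told apart. Of the 10 genes, 9 were tested. Ncr1, a defining natural killer gene, was not well above background on any of the 10 arrays, with log2 signals between 2.02 and 3.81, and no difference is given for it. Of the other natural killer markers fixed for this check, Klrd1, Klrb1a, Gzma and Prf1 were tested, and Tbx21 stayed near background on all 10 arrays.

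Klrd1 and Klrc2, coding for a CD94 chain and an NKG2 chain, were lower in SM livers than in controls, and Klrd1 was higher in SM + MSTF livers than in SM livers. Each of these calls was lost under normexp background correction and with the slide as a random effect, as given below. All SM arrays were on a slide of their own, so SM and its slide cannot be told apart. Of the 9 genes tested, 2 fell and 0 rose in SM against control, where 2.41% of all probes tested were called in either direction, 1.43% lower and 0.974% higher. Between SM + MSTF and control, 0 of the 9 were called (0% of all probes), 0 of 9 had an unadjusted p under 0.05 (9.54% of all probes), and 0 of 9 had groups that did not overlap (15.4% of all probes). Between SM + MSTF and SM, 1 of the 9 rose, against 1.26% of all probes called and 0.322% called higher, and 2 of 9, Klrd1 and Klrc2, had an unadjusted p under 0.05, against 15.9% of all probes. The arrays of these 2 genes did not overlap between SM + MSTF and SM, which held for 14.7% of all probes and, with SM + MSTF higher, for 5.96%. All 9 had a mean below control in SM, as did 44.1% of all probes, and all 9 had a mean above SM in SM + MSTF, as did 46.4% of all probes. The median log2 fold change over the 9 was -0.50 in SM against control, -0.09 in SM + MSTF against control and 0.38 in SM + MSTF against SM, where the medians over all probes were 0.03, 0.00 and -0.02. The 10 tested markers of Kupffer cells and macrophages had the same directions, with 10 of 10 means below control in SM (median -0.12) and 10 of 10 above SM in SM + MSTF (median 0.39). None of the 10 was called, 0 and 4 had an unadjusted p under 0.05, and the part of this in the values of the 9 genes was not tested. The study listed Klrd1, Klrc2 and Klrc3 from these same arrays, so their direction is not independent evidence. The last comparison shares its SM arrays with the first. In whole liver, fewer natural killer cells and less RNA per cell cannot be told apart.

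**Figure D1:**
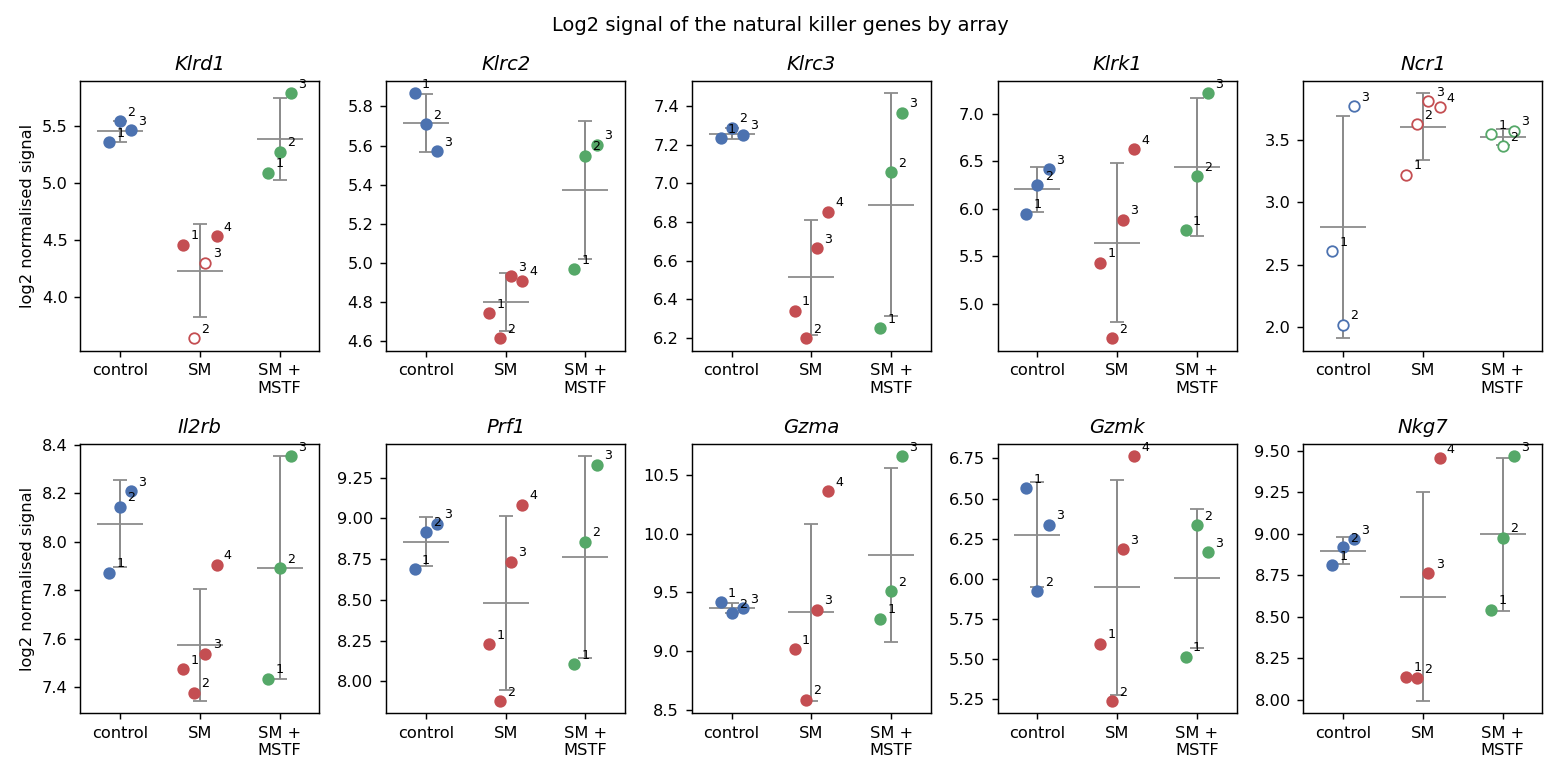
Log2 normalised signal (vertical axis) of each of the 10 genes on each array, by group (horizontal axis). Points are rats numbered by replicate, open points were not well above background, and bars give the group mean with 1 SD; for Klrd1 the 4 SM points lie below all other points, whereas for Gzma SM replicate 4 lies above every control.

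Klrd1 had log2 signals of 5.35, 5.54 and 5.46 in controls, 4.46, 3.64, 4.30 and 4.53 in SM, and 5.09, 5.27 and 5.78 in SM + MSTF. Every SM array lay below every array of both other groups, and control and SM + MSTF arrays overlapped. SM livers were 2.33-fold lower than controls (log2 fold change -1.22, SE 0.23, limma adjusted p = 0.0277), and SM + MSTF livers were 2.22-fold higher than SM livers (log2 fold change 1.15, SE 0.23, limma adjusted p = 0.0455). The SM + MSTF group differed from control by -0.07, with a 95% interval of -0.62 to 0.48. The probe was well above background on 2 of the 4 SM arrays, replicates 1 and 4, so the SM mean rests in part on values near background. It passed the filter through the control and SM + MSTF groups, where it was higher, and not through SM. This route favours a lower SM mean. Without the filter on dim probes the SM against control call was lost (log2 fold change -1.22, limma adjusted p = 0.0581). It was also lost in a Student's t-test after Benjamini-Hochberg adjustment (adjusted p = 0.0961).

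The size of the Klrd1 change depended on how dim signals were handled. With normexp background correction and an offset of 50, the difference of SM from control was -0.36 (limma adjusted p = 0.0986) and that of SM + MSTF from SM was 0.29 (limma adjusted p = 0.191). With each array left out in turn, the SM against control call was lost without any 1 of the 3 controls, SM replicate 1 or SM replicate 3 (limma adjusted p between 0.0637 and 0.110), while the log2 fold change stayed between -1.32 and -1.02. The call in SM + MSTF against SM held only without SM replicate 2 (limma adjusted p = 0.0408) and was lost without each of the other 9 arrays (adjusted p from 0.0531 to 0.112). That call was also lost with 75th percentile scaling (limma adjusted p = 0.0780) and in a limma fit of only the groups compared (adjusted p = 0.118). With the slide as a random effect in limma, adjusted p was 0.0912 for SM against control and 0.102 for SM + MSTF against SM, with log2 fold changes of -1.18 and 1.16.

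Klrc2, which codes for the activating chain NKG2C, had log2 signals of 5.87, 5.71 and 5.57 in controls, 4.74, 4.61, 4.93 and 4.91 in SM, and 4.97, 5.55 and 5.61 in SM + MSTF. The SM arrays again lay below all others, by a narrow margin for SM + MSTF replicate 1. SM livers were 1.89-fold lower than controls (log2 fold change -0.92, SE 0.16, limma adjusted p = 0.0254). SM + MSTF livers were 0.57 above SM and did not pass (SE 0.16, limma adjusted p = 0.148), and they differed from control by -0.34 (95% interval -0.74 to 0.05). Under normexp the difference of SM from control was -0.27 (limma adjusted p = 0.111), and with the slide as a random effect it was -0.89 (limma adjusted p = 0.0819). Leaving out any 1 control or SM array moved the adjusted p to between 0.0509 and 0.0942, with the log2 fold change between -0.99 and -0.84. Klrc2 had the smallest spread of the 9 genes within groups, an SD of 0.23 that lies at percentile 58.7 of all probes.

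Klrc3, the gene of a further NKG2 chain, was read by 2 probes that gave the same order of groups. The brighter probe had log2 signals of 7.23, 7.29 and 7.25 in controls, 6.34, 6.20, 6.66 and 6.85 in SM, and 6.25, 7.06 and 7.36 in SM + MSTF. All SM arrays lay below all controls, and SM + MSTF replicate 1 lay among the SM arrays. Neither probe passed in SM against control, with log2 fold changes of -0.74 (limma adjusted p = 0.166) and -1.03 (limma adjusted p = 0.118). From SM to SM + MSTF the differences were 0.38 (limma adjusted p = 0.467) and 0.66 (limma adjusted p = 0.325). The dimmer probe was not well above background on SM + MSTF replicate 1. Klrc2, Klrc3 and their relatives share sequence, and whether a probe also binds the RNA of a paralog was not tested, since probe sequences were not used here.

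Klrk1, coding for NKG2D, varied most between rats. Its log2 signals were 5.95, 6.25 and 6.42 in controls, 5.43, 4.63, 5.89 and 6.63 in SM, and 5.77, 6.35 and 7.22 in SM + MSTF. SM replicate 4 was above every control and SM replicate 2 was the lowest array of all. The difference of SM from control was -0.56 (95% interval -1.57 to 0.45, limma adjusted p = 0.594), and that of SM + MSTF from SM was 0.80 (95% interval -0.21 to 1.81, limma unadjusted p = 0.108). The within-group SD of 0.68 was at percentile 96.3 of all probes, where the median SD was 0.20. Il2rb, the interleukin receptor chain on which natural killer cells depend for survival, had log2 signals of 7.87, 8.14 and 8.21 in controls, 7.47, 7.38, 7.54 and 7.91 in SM, and 7.43, 7.89 and 8.35 in SM + MSTF. SM replicate 4 overlapped the controls. Its difference of SM from control was -0.50 (95% interval -0.97 to -0.03), which had an unadjusted limma p of 0.0396 and an adjusted p of 0.273. Counting all 9 genes, 4 had an unadjusted p under 0.05 in SM against control, against 16.4% of all probes, and these were Klrd1, Klrc2, Klrc3 and Il2rb.

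None of the 4 granule genes passed in any of the 3 comparisons, and their arrays overlapped between groups. Prf1 had log2 signals of 8.69, 8.92 and 8.97 in controls, 8.23, 7.88, 8.73 and 9.08 in SM, and 8.10, 8.86 and 9.33 in SM + MSTF. Its difference of SM from control was -0.38 (95% interval -1.11 to 0.35, limma adjusted p = 0.621). SM replicate 4 exceeded all 3 controls for perforin.

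Gzma, coding for granzyme A, had log2 signals of 9.42, 9.33 and 9.36 in controls, 9.02, 8.59, 9.36 and 10.36 in SM, and 9.28, 9.51 and 10.66 in SM + MSTF. The controls lay within 0.1 of each other, while the SM arrays lay on both sides of them. The difference of SM from control was -0.04 (95% interval -0.98 to 0.90, limma adjusted p = 0.976), and it was 0.21 without SM replicate 2 and -0.38 at its lowest, without SM replicate 4. The interval reaches close to 1 log2 unit on either side, so differences of nearly 2-fold in either direction lie within it.

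Gzmk, coding for granzyme K, had log2 signals of 6.57, 5.92 and 6.34 in controls, 5.59, 5.23, 6.19 and 6.77 in SM, and 5.51, 6.33 and 6.16 in SM + MSTF. The SM arrays ran from below the lowest to above the highest array of both other groups, and the difference of SM + MSTF from SM was 0.06 (limma adjusted p = 0.945), or -0.01 with 75th percentile scaling. Nkg7 had log2 signals of 8.81, 8.92 and 8.97 in controls, 8.14, 8.13, 8.76 and 9.45 in SM, and 8.54, 8.98 and 9.47 in SM + MSTF. Here SM replicates 1 to 3 lay below the controls and replicate 4 above them, and the difference of SM from control was -0.28 (SE 0.32, limma adjusted p = 0.726). The within-group SDs of the 4 granule genes were at percentiles 91.2 to 95.4 of all probes.

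**Figure D2:**
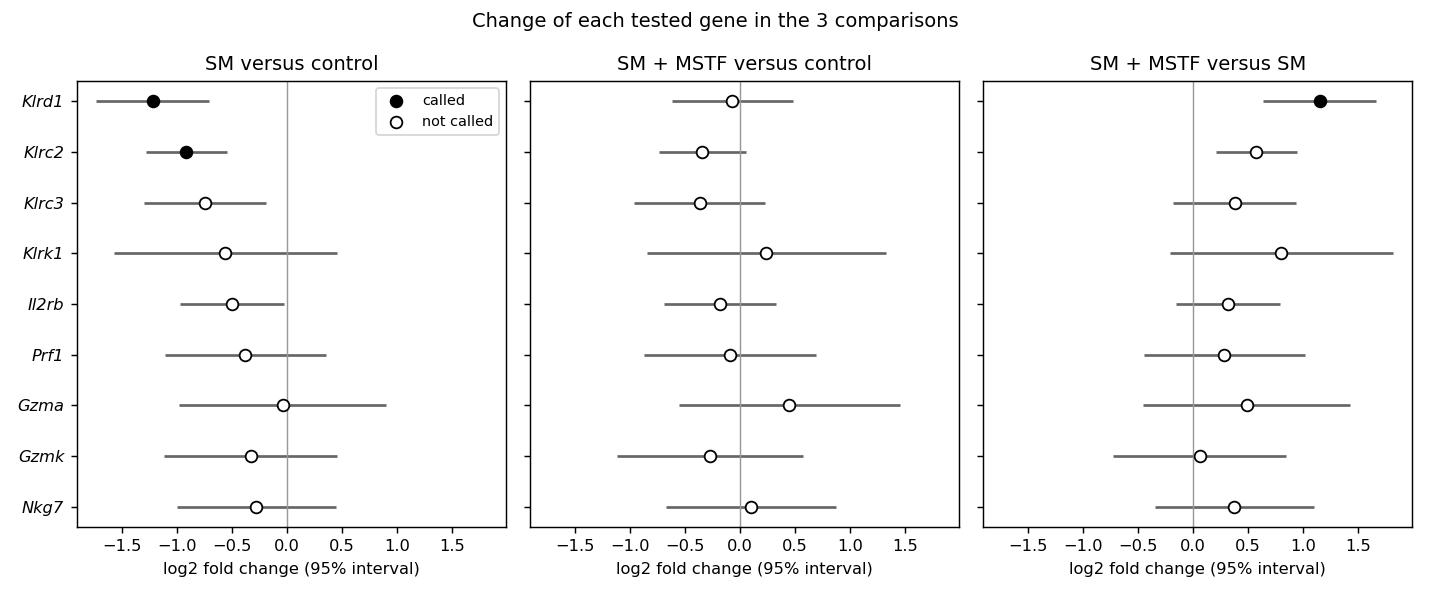
Log2 fold change (horizontal axis) of each of the 9 tested genes in the 3 comparisons, with limma's 95% interval; filled points were called. Klrd1 at -1.22 and Klrc2 at -0.92 are filled in SM versus control, Klrd1 at 1.15 in SM + MSTF versus SM, and no point is filled in SM + MSTF versus control.

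In the SM and SM + MSTF groups, though not in controls, the same arrays were lowest and highest for nearly all of the 9 genes. SM replicate 2 was the lowest SM array for 9 of 9 genes, as it was for 25.4% of all probes, and SM replicate 4 was the highest for 8 of 9, against 24.1% of all probes. SM + MSTF replicate 1 was the lowest of its group for 9 of 9 (31.1% of all probes), and replicate 3 was the highest for 8 of 9 (35.2%). In that group replicate 3 was on the slide of the controls, and replicates 1 and 2 were on another slide. Among controls, replicates 1 to 3 were the highest array for 3, 2 and 4 genes and the lowest for 6, 2 and 1. The exceptions in the treated groups were Klrc2, highest in SM replicate 3, and Gzmk, highest in SM + MSTF replicate 2. Some markers of other cells, described below, shared the SM order. Kupffer cell and macrophage markers averaged 11.23, 10.89, 11.31 and 11.73 in SM replicates 1 to 4. T cell markers averaged 6.74, 6.14, 6.47 and 6.84. Endothelial markers had the same lowest and highest SM array. Neutrophil markers shared only the lowest and pan-leukocyte markers only the highest. B cell, erythroid and hepatocyte markers shared neither. The mean log2 signal of the 9 genes was 7.31, 7.33 and 7.39 in controls, 6.60, 6.25, 6.93 and 7.39 in SM, and 6.77, 7.31 and 7.77 in SM + MSTF. The SM arrays thus ran from about 1 unit below the controls up to their level, and the controls were nearly alike. The genes share the same livers and arrays, so these counts are not 9 independent observations.

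The distance between Klrd1, Klrc2 and Klrc3, which had the lowest log2 fold changes of the 9 genes in SM against control, and the granule genes was also read on each array. The mean log2 signal of Klrd1, Klrc2 and Klrc3 minus that of Prf1, Gzma, Gzmk and Nkg7 was -2.22, -2.09 and -2.32 in controls, -2.56, -2.64, -2.96 and -3.48 in SM, and -2.42, -2.46 and -2.65 in SM + MSTF. Only the shift between groups can be read from such a difference, since probes differ in brightness. The 4 SM arrays and the 3 SM + MSTF arrays all lay below the 3 controls. The same order of SM and control arrays, without overlap, was found with 75th percentile scaling and with the authors' deposited log2 values, and under normexp SM arrays from -2.12 to -1.31 overlapped controls, of which the highest was at -1.36. Under normexp the SM and SM + MSTF means were -1.61 and -1.62. With Klrk1 and Il2rb added to the receptors, the difference was -1.92 to -1.69 in controls, -2.75 to -2.06 in SM and -2.04 to -1.96 in SM + MSTF, and without Klrd1, whose probe was not well above background on 2 SM arrays, it was -1.998 to -1.77, -3.03 to -2.05 and -2.42 to -2.12, again with every control above the other arrays. The 3 receptor genes were chosen with these results known, and the other choices were added after seeing the data, so no test is given. Taking the genes with the lowest changes in SM builds part of the wider SM distance into the measure. The other scalings use the same arrays, and the other gene sets still hold Klrc2 and Klrc3. SM replicate 4, which had the highest granule signal, also had the widest distance. The granule signal is a term of that distance, so a high granule signal widens it by itself.

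**Figure D3:**
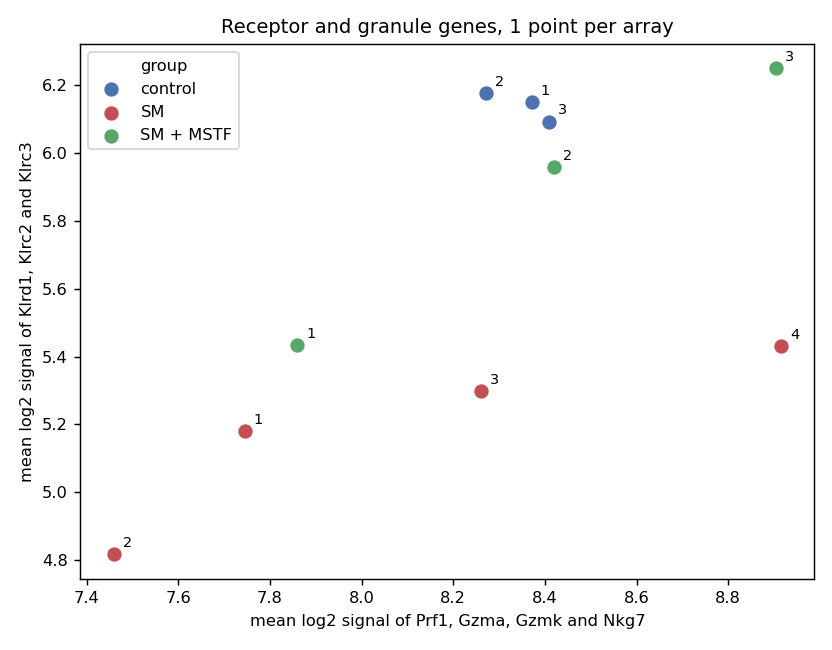
Mean log2 signal of the receptor genes Klrd1, Klrc2 and Klrc3 (vertical axis) against that of the granule genes Prf1, Gzma, Gzmk and Nkg7 (horizontal axis), 1 point per array, numbered by replicate. The SM arrays run from 7.46 to 8.92 on the granule axis but from 4.82 to 5.43 on the receptor axis, below the controls at 6.09 to 6.18.

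The array held probes for 13 of 39 other genes whose symbol begins with Klr or Ly49, most of them further lectin-like receptors of natural killer cells, and 4 were tested. None was called in any comparison. Klri2 had the widest difference, with log2 means of 5.26 in control, 4.18 in SM and 5.13 in SM + MSTF. Its probe was not well above background on SM replicates 1 and 3 and SM + MSTF replicate 1, so it entered the tests only through the controls. Such a filter favours probes that are lower in SM than in controls. Klri2 was 1.09 lower in SM than in control at an unadjusted limma p of 0.0113 (adjusted p = 0.148), and its control and SM arrays did not overlap. Such separation, in either direction, held for 18.0% of all probes and, with SM lower, for 7.97%, and it held with SM lower for 3 of the 9 genes above, Klrd1, Klrc2 and Klrc3. Klra5 and Klre1 differed from control by -0.51 and -0.46 in SM (limma adjusted p = 0.583 and 0.612), and Klrb1a, coding for an NKR-P1 receptor, by -0.50 (limma adjusted p = 0.306). In SM replicate 4 Klra5 and Klre1 were at 6.81 and 6.80, above every control.

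Of 87 other genes of natural killer signalling and killing, 66 had a probe and 39 were tested, and 0 were called in any comparison in limma. Their signals are those of whole liver and were not assigned to natural killer cells or to any other cell type. At an unadjusted p under 0.05, 6 were lower and 0 higher in SM against control, against 7.10% and 9.28% of all probes. Between SM + MSTF and SM, 9 were higher and 3 lower, against 6.23% and 9.70%. With the methods' t-test at an unadjusted p under 0.05 and the 1.5-fold minimum, 0 of the 39 passed in SM against control (4.92% of all probes) and 3 in SM + MSTF against SM (3.75% of all probes). None of the 5 listed ligand genes of NKG2D had a probe. The median log2 fold change of the 39 was -0.22 in SM against control, -0.01 in SM + MSTF against control and 0.29 in SM + MSTF against SM.

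Among granule genes, Gzmc, a further granzyme, had log2 signals of 6.50, 8.47 and 8.24 in controls, 5.62, 6.21, 6.26 and 7.23 in SM, and 7.87, 7.32 and 9.24 in SM + MSTF. Its differences were -1.41 in SM against control (limma adjusted p = 0.271) and 1.81 in SM + MSTF against SM (limma adjusted p = 0.190), and its SM and SM + MSTF arrays did not overlap. The same held for 6 of the 39 genes in SM + MSTF against SM, 4 of them higher in SM + MSTF. Over all probes the share was 14.7%, with 5.96% higher in SM + MSTF. Gzmm, granzyme M, differed by -0.29 and 0.48 in the same comparisons (limma adjusted p = 0.545 and 0.306). Srgn, which codes for the granule proteoglycan, and Ctsc, which codes for the protease that activates granzymes, differed by -0.09 and 0.01 in SM against control.

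The adaptors Tyrobp (DAP12) and Fcer1g, which carry the signal of activating receptors and are also strongly used by macrophages, differed from control by -0.17 and -0.23 in SM and by 0.31 and 0.36 in SM + MSTF, none of which passed. Of the surface receptors, Cd7 had a difference of -0.53 in SM against control with no overlap of arrays (limma adjusted p = 0.146), and Fcgr3a, the antibody receptor CD16, one of -0.61 with overlap (limma adjusted p = 0.528). In that comparison 4 of the 39 genes had no overlap, 3 lower in SM (Cd7 and Ccl5 among them) and 1 higher (Tox). Over all probes the share was 18.0%, with 7.97% lower in SM. The chemokine genes that natural killer cells express on activation had differences in SM against control of -1.04 for Ccl3, -0.23 for Ccl4, -0.55 for Ccl5 and -0.75 for Xcl1, with limma adjusted p from 0.298 to 0.884. Of the homing genes, Itgam and Itgb2, the chains of the integrin Mac-1, had differences of -1.05 and -0.37 in SM against control and of 1.37 and 0.31 in SM + MSTF against SM, none of which passed.

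Of the 5 other growth cytokine and signal genes tested, 2 had a mean below and 3 a mean above control in SM, with a median log2 fold change of 0.01. Jak3, Stat5a and Stat5b, which act below Il2rb, differed from control in SM by 0.10, 0.11 and 0.01, and the cytokine gene Il18 differed by -0.35 (limma adjusted p = 0.544). Stat5a was 0.59 lower in SM + MSTF than in SM at an unadjusted limma p of 0.00549 (adjusted p = 0.141), the opposite direction to Il2rb at 0.32. The transcription factor genes Nfil3, Tox, Zeb2 and Id2, which act in natural killer development among other roles, had differences between -0.22 and 0.22 in SM against control.

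**Figure D4:**
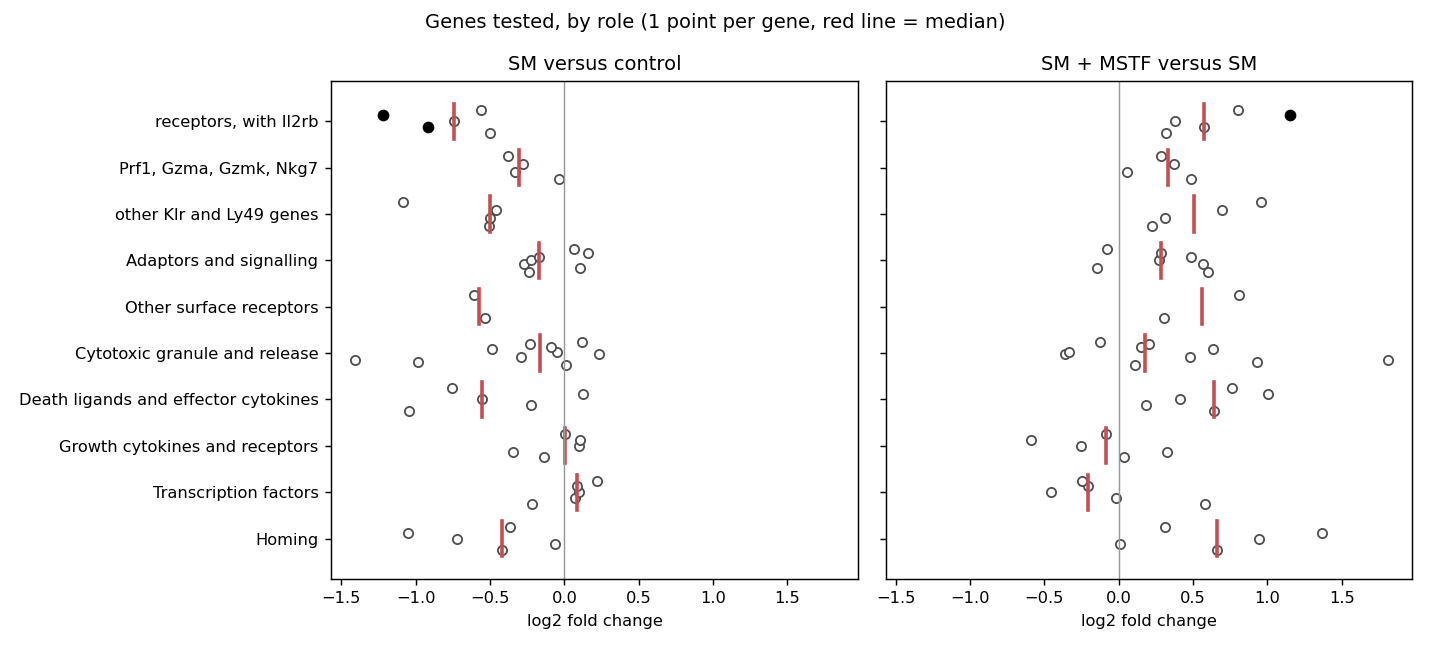
Log2 fold change (horizontal axis) of every tested gene by role (vertical axis), 1 point per gene, for SM versus control and SM + MSTF versus SM; filled points were called and the red line is the median of the role. The filled points are Klrd1 and Klrc2 on the left and Klrd1 on the right.

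Markers of other cells give the setting of these values. The T cell list (7 of 11 markers tested, with Cd247, Cd5 and Cd28 not well above background on any array) had a mean log2 signal of 6.48 to 6.69 in controls, 6.14 to 6.84 in SM and 6.27 to 6.74 in SM + MSTF, and in SM against control 5 of the 7 had a mean below and 2 a mean above control, with log2 fold changes from -0.39 to 0.60, a median of -0.11 and a smallest limma adjusted p of 0.0810. Of these 7, 1 had an unadjusted p under 0.05, with SM higher. The natural killer list, which holds Klrd1, Gzma and Prf1, ran from 7.23 to 7.40, 6.21 to 7.39 and 6.88 to 7.88. The 5 pan-leukocyte markers tested ran from 8.57 to 9.03, 8.53 to 9.37 and 8.78 to 9.29. The 10 Kupffer cell and macrophage markers tested ran from 11.39 to 11.62, 10.89 to 11.73 and 11.73 to 11.74, and 9 hepatocyte markers from 16.04 to 16.14, 16.00 to 16.17 and 15.99 to 16.10. The B cell list (2 of 7 markers tested) had a mean of 6.78 to 6.89 in controls, 5.62 to 6.21 in SM and 5.58 to 6.87 in SM + MSTF, but its 2 markers differed in direction. Cd79b had a difference of -2.18 in SM against control (limma adjusted p = 0.125), and its probe was not well above background on SM replicates 1 and 4 and SM + MSTF replicate 2. Cd79b thus entered the tests only through the controls, where it was highest, and such a filter favours a lower SM mean. Cd22 had a difference of 0.22 (limma adjusted p = 0.541). Neutrophil markers (2 of 8 tested) ran from 6.87 to 7.92, 7.07 to 9.57 and 7.29 to 8.71, erythroid markers (4 of 6) from 9.61 to 11.20, 10.36 to 11.87 and 10.52 to 11.47, and endothelial markers (5 of 7) from 8.47 to 8.69, 8.55 to 8.76 and 8.46 to 8.79. Of all these markers only Klrd1 was called, and the part of cell composition in its change was not tested.

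Over the 10 arrays, the genes whose log2 signal followed the standardised mean of the 9 genes most closely, out of 8435 compared, were Eif4h (r = 0.979), Usp18 (r = 0.977), Ly6al (r = 0.969), Slfn4 (r = 0.968) and Slfn2 (r = 0.965). Usp18, which codes for an interferon-induced protease, was at a mean of 6.64 in SM and 8.03 in SM + MSTF and differed by -1.36 between SM and control (limma adjusted p = 0.492). After each group's mean was subtracted, the closest were Klra5 (r = 0.988), Dhx58 (r = 0.988), Eif4h (r = 0.984), Dlgap4 (r = 0.980) and Usp18 (r = 0.978). These correlations are descriptions over arrays that share their slides and normalisation, and none of these genes was called in any of the 3 comparisons.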

How the data were processed

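Liver RNA of 10 rats was hybridised to one-colour Agilent 4 x 44K Whole Rat Genome arrays. Per the file headers, the authors deposited Agilent Feature Extraction 10.7 output with a background-subtracted intensity for each spot, and a table of log2 values that the authors quantile-normalised in GeneSpring. The intensity was the starting point here, and the deposited log2 values (r of at least 0.999987 with their own arrays) an alternative.

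Control spots were removed, as were the 0 to 4 spots per array that the scanner software flagged for uneven signal. On each array 43379 spots on 41012 probes were quantile normalised, put on the log2 scale and averaged per probe. No spot was saturated. Probes were named through transcript accessions (17512 named), and a gene is given by its brightest probe. The fit took the 22991 probes that were well above background throughout 1 or more groups, and used lmFit and eBayes (limma 3.58.1, R 4.3.3) as 1 model of 3 groups and 3 contrasts, with Benjamini-Hochberg adjustment. The number of arrays limits the precision. Each sample was labelled as a separate liver, and replicate numbers were not treated as pairs, since deviations of same-numbered arrays correlated between -0.10 and 0.17. On data simulated for SM against control, 85% of 200 probes changed by 1.5 log2 units among 22986 were recovered. That planted change was larger than any change of the 9 genes tested, of which the widest was -1.22. The share therefore does not describe smaller changes or genes with a wider spread.

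The genes, lists and tests were chosen with earlier results of these data known. The text names all 10 genes, other listed genes that were called, and up to 4 per role by mean signal. Genes named outside this rule were chosen after their values were seen. Alternatives were other scaling, background correction, filters, tests, slide and replicate blocks and each array left out.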

Additional observations from a re-analysis of the deposited data

Results flagged for a closer look

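Over 68 probes of the listed genes, the 4 SM arrays were examined for an array far from its group, where chance alone marks about 1 group in 20. Jak3, the kinase of the common gamma chain receptors, was at a log2 signal of 8.61 in SM replicate 2, where the nearest other SM array was at 8.97. Lyve1, a marker of liver sinusoidal endothelium, was at 11.6 in SM replicate 4, where the nearest was at 11.1. None of the 10 natural killer genes had such an array.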

How the results depend on the processing

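The number of natural killer genes called in SM against control was 2. It was 0 under normexp, the replicate block and the slide as a random block, and 0 to 2 with an array left out. The number was 1 (Klrc2) without the filter on dim probes and with the methods' t-test after Benjamini-Hochberg adjustment. It was also 1 (Klrc2) with only probes above background on all 10 arrays, which drops Klrd1. With the methods' t-test at an unadjusted p under 0.05 and the fold minimum it was 3, with Klrc3 added, against 4.92% of all probes. In SM + MSTF against SM the 1 call became 0 under 75th percentile scaling, normexp, no filter, the all-array filter (which drops Klrd1), a fit of only the groups compared, the adjusted t-test, the replicate block and the slide as a random block, and it was 0 to 1 with an array left out. The cause was not tested. Klrd1 and Klrc2 kept their direction in SM against control in every setting run. With the slide as a fixed block, only SM + MSTF against control could be fitted, and it rests on SM + MSTF replicate 3: Klrd1 was then 0.33, Klrc3 0.11, Il2rb 0.28 and Prf1 0.47, with a median of 0.33 over the genes, against negative values without the block. Gzma in SM against control turned to 0.0498 under a random slide block, and Gzmk in SM + MSTF against SM to -0.0144 with 75th percentile scaling.

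With an array left out, Gzma in SM against control ran from -0.38 to 0.21. For SM + MSTF against control, Klrd1 ran from -0.27 to 0.0765, Klrk1 from -0.15 to 0.58, Il2rb from -0.41 to 0.0476, Nkg7 from -0.14 to 0.32 and Prf1 from -0.38 to 0.24. In SM + MSTF against SM, Gzmk ran from -0.18 to 0.33 and Prf1 from -0.00040 to 0.61.

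Of the other pathway genes, 0 were called, and 1 (Il12rb1) was called without the dim filter in SM against control and likewise 1 in SM + MSTF against SM, 1 (Tnfsf10) with the slide as a fixed block in SM + MSTF against control, 3 (Stat5a, Gzmc and Itgal) with the unadjusted t-test in SM + MSTF against SM, and 0 to 1 (Id2, without SM + MSTF replicate 3) with an array left out there. Of the other Klr and Ly49 genes, 1 (Klri2) passed the unadjusted t-test in SM against control.

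Over all probes, the 553 calls in SM against control became 217 under normexp, 342 without the filter, 336 with the all-array filter, 1131 with the unadjusted and 320 with the adjusted t-test, 53 with the replicate block, 85 with the slide as a random block and 65 to 717 with an array left out. The 0 calls in SM + MSTF against control became 285 with the unadjusted t-test, 291 with the slide as a fixed block and 0 to 247 with an array left out. The 290 calls in SM + MSTF against SM became 57, 140 (all-array filter), 147 (only the groups compared), 863 and 13 (t-tests), 64 (replicate block), 102 (slide as a random block) and 98 to 301. The replicate numbers were not pairs, so the replicate block is given as a count only. Dim signal limits Klrd1, Klrc2, Ncr1 and the second Klrc3 probe. Klrc2 was well above background on all 10 arrays, but normexp took its SM against control difference from -0.92 to -0.27.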
